A study of Homo sapiens with 9 samples.

Results

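The genes described here encode 10 core proteins of proteoglycans, the glycosaminoglycan-bearing proteins of the extracellular matrix and the cell surface: the small leucine-rich proteoglycans DCN (decorin), LUM (lumican), BGN (biglycan), FMOD (fibromodulin), PRELP and OGN (osteoglycin), the large aggregating proteoglycan VCAN (versican), the basement membrane proteoglycan HSPG2 (perlecan), and the cell surface heparan sulfate proteoglycans SDC1 (syndecan-1) and GPC1 (glypican-1). They were chosen by gene name, each matching 1 of the 60671 rows of the expression table. Of the 10 genes, 9 were above 0 in at least 1 library, and 7 reached a group mean of 0.5 FPKM (sequenced fragments scaled to transcript length and to library size) in at least 1 group and were tested among 16996 genes. These 7 were above that minimum in all 3 groups.

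Proteoglycans carry chains of chondroitin, dermatan, keratan or heparan sulfate that are built sugar by sugar in the Golgi on a linkage region attached to the core protein. Small leucine-rich proteoglycans bind fibrillar collagens and set fibril diameter and spacing, and several bind TGF-beta. Syndecans span the membrane and glypicans are held on it by a lipid anchor, and both present growth factors to their receptors through heparan sulfate. In the heart, small leucine-rich proteoglycans are made mainly by fibroblasts.

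The study sequenced RNA from AC16 cells in 9 libraries, 3 cultured in high glucose together with chrysin, 3 in high glucose and 3 in low glucose. Chrysin is a plant flavone, and the series title places it in the context of ferroptosis in diabetic cardiomyopathy. AC16 is an established human line, labelled a cardiomyocyte line, that was derived by fusing adult ventricular cells with transformed fibroblasts. All libraries therefore come from 1 line with the same background, and the labels give no genetic change in any group. The sources used here do not give the glucose concentrations, the chrysin dose or the exposure time. The labels describe polyA RNA. They do not say whether the libraries of a group came from separate cultures. The p-values set group differences against the spread among these libraries only, and that spread may be technical.

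The recovered depth was 18171842 to 23024300 reads per library. High glucose library 1 stood apart from its replicates: over genes with more than 10000 reads in the 2 libraries compared, the mean chi-square per gene was 28.1 and 31.5 against the other high glucose libraries and 4.82 to 7.44 in all other replicate pairs. Mitochondrially encoded genes took 3.80% to 3.89% of reads in chrysin libraries, 2.80% to 3.04% in high glucose and 2.79% to 2.90% in low glucose. Against the cardiomyocyte label, 9 of 12 cardiomyocyte markers stayed under 0.5 FPKM in every library, among them TNNT2, MYH6, MYH7 and ACTN2, and MYL2 and PLN were at 0. The 10 fibroblast markers were all expressed, with summed levels of 3880 to 4020 FPKM in chrysin, 6500 to 6840 FPKM in high glucose and 4990 to 5280 FPKM in low glucose. Most of that sum was COL1A1, at 2900 FPKM in chrysin, 5140 FPKM in high glucose and 3710 FPKM in low glucose.

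With chrysin in high glucose, DCN and LUM fell steeply relative to high glucose alone and GPC1 rose, while high glucose itself called none of the 7 genes against low glucose. DCN and LUM dropped by 72.9% and 63.7% of their mean FPKM, and GPC1 rose by 38.2%. BGN, a close relative of DCN, was only slightly lower, with an adjusted p just above the threshold. VCAN, HSPG2 and SDC1 passed the test in no comparison. Levels are in FPKM, and the length used for each gene is not given. In high glucose library 1, 3 reads equalled 0.0803 FPKM for HSPG2 and 0.0256 FPKM for PRELP. The length used for HSPG2, a large proteoglycan, was thus shorter than that for PRELP. Levels of different genes are therefore set side by side only as deposited. Differences are log2 fold changes of FPKM + 0.5 from limma, fitted on all 16996 genes and called at a Benjamini-Hochberg adjusted p under 0.05.

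**Figure D1:**
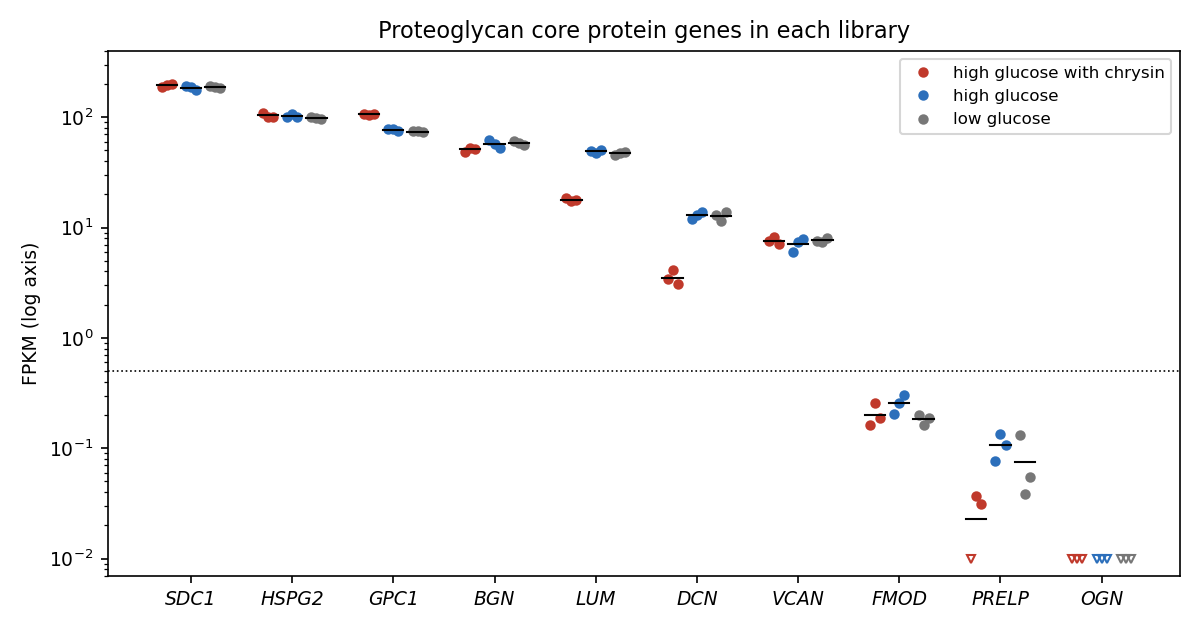
FPKM (log axis) of the 10 proteoglycan genes in each of the 9 libraries, coloured by group, with black bars at the group means, a dotted line at the 0.5 FPKM minimum and open triangles at the bottom for libraries listed at 0. DCN and LUM are lower in the chrysin libraries than in all others, GPC1 is higher, and OGN is at 0 throughout.

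Among the small leucine-rich proteoglycans, decorin binds collagen fibrils and sequesters TGF-beta. Its gene DCN (ENSG00000011465.16, chr12:91140484-91183123, minus strand, hg38 with GENCODE 29, as for all positions below) was at 3.39, 4.11 and 3.05 FPKM in the chrysin libraries, 12.0, 13.0 and 13.9 FPKM in high glucose and 13.1, 11.5 and 13.9 FPKM in low glucose. The chrysin libraries were all below every other library, and the high and low glucose libraries overlapped. Group means were 3.52 ± 0.55 FPKM with chrysin, 13.0 ± 0.95 FPKM in high glucose and 12.8 ± 1.2 FPKM in low glucose (SD, n = 3 each). DCN fell in chrysin against high glucose, with a log2 fold change of -1.75 (SE 0.10, 95% interval -1.98 to -1.52, limma adjusted p = 5.6e-07), and against low glucose, with -1.73 (adjusted p = 3.9e-07). High glucose against low glucose gave 0.02 (95% interval -0.21 to 0.25, adjusted p = 0.93). These values rest on 80 to 385 reads per library.

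Lumican carries keratan sulfate and regulates fibril spacing in the cornea and other connective tissue. LUM (ENSG00000139329.4, chr12:91102629-91111831, minus strand) was at 18.5, 17.4 and 17.7 FPKM in chrysin libraries, 49.4, 47.8 and 50.3 FPKM in high glucose and 45.8, 47.8 and 48.2 FPKM in low glucose. Again the 3 chrysin libraries were low and the other 6 were high. Its mean was 17.9 ± 0.54 FPKM with chrysin, 49.2 ± 1.3 FPKM in high glucose and 47.2 ± 1.3 FPKM in low glucose (SD, n = 3 each). LUM fell by 1.44 on the log2 scale in chrysin against high glucose (SE 0.04, 95% interval -1.52 to -1.35, limma adjusted p = 3.1e-09) and by 1.38 against low glucose (adjusted p = 1.7e-09). The high glucose effect was 0.06 (95% interval -0.03 to 0.14, adjusted p = 0.34). Without high glucose library 1, the chrysin effect on LUM was -1.43 and on DCN -1.80.

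Biglycan resembles decorin in sequence and binds collagen and TGF-beta family ligands. BGN (ENSG00000182492.15, chrX:153494939-153509554, plus strand) was at 48.8, 52.7 and 52.0 FPKM in chrysin libraries, 61.9, 57.4 and 52.2 FPKM in high glucose and 61.4, 58.0 and 56.0 FPKM in low glucose. The chrysin libraries were below all low glucose libraries but overlapped the high glucose range, whose lowest library lay within it. BGN fell in chrysin against low glucose, with -0.19 (SE 0.06, 95% interval -0.32 to -0.06, limma adjusted p = 0.021), and gave -0.16 against high glucose (95% interval -0.29 to -0.02, adjusted p = 0.055). The first call was lost without chrysin library 1 or low glucose library 1 (adjusted p = 0.080 and 0.082) and with no filter on low values (adjusted p = 0.055). The second comparison passed when high glucose library 3 was left out (-0.22, adjusted p = 0.0085). HAUS7 lies on the opposite strand over part of BGN at 1.05 to 3.54 FPKM, and the sources used here do not say whether reads were counted by strand.

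The remaining small leucine-rich genes were near or at 0. FMOD (ENSG00000122176.11, chr1:203340628-203351758, minus strand), whose product binds collagen fibrils, was at 0.162, 0.255 and 0.188 FPKM in chrysin, 0.205, 0.258 and 0.306 FPKM in high glucose and 0.200, 0.164 and 0.187 FPKM in low glucose, which is 5 to 10 reads per library. These ranges overlapped. PRELP (ENSG00000188783.5, chr1:203475828-203491352, plus strand), which anchors basement membranes to connective tissue, had 0, 4 and 4 reads in chrysin libraries, 9, 18 and 12 in high glucose and 16, 4 and 6 in low glucose. The chrysin libraries were all below the high glucose libraries in reads, but in a fit with no filter the difference did not pass (log2 fold change -0.21, limma adjusted p = 0.079). OGN (ENSG00000106809.10, chr9:92383967-92404696, minus strand) had no read in any of the 9 libraries. In a single library a count of 0 allows up to 3 reads by counting error alone, and the 9 together allow fewer per library. CENPP overlaps OGN on the opposite strand at 3.33 to 5.48 FPKM. The sources used here do not say how reads in such overlaps were counted.

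DCN and LUM are neighbours, both transcribed from the minus strand and 28.7 kb apart. The further small leucine-rich genes of this cluster were silent or nearly so: KERA was at 0 in all libraries and EPYC reached at most 0.0535 FPKM. A window of 2500 kb on either side of DCN, chosen after its values were seen, held 15 tested genes. In chrysin against high glucose 8 of them were called lower and 2 higher. Without DCN and LUM, on which the window was centred, 6 of 13 were lower and 2 higher, where 20.9% and 24.9% of all tested genes were. The nearest tested genes beyond LUM were BTG1, an antiproliferative gene 962.8 kb away, at 7.52 FPKM with chrysin, 18.5 FPKM in high glucose and 25.2 FPKM in low glucose (log2 fold change of chrysin against high glucose -1.24, SE 0.05, limma adjusted p = 7.1e-08), and ATP2B1, a plasma membrane calcium pump, at 51.9, 58.5 and 78.4 FPKM in the same order (-0.17, adjusted p = 0.026). BTG1 and ATP2B1 also fell in high glucose against low glucose, by 0.44 and 0.42 on the log2 scale (adjusted p = 0.0003 and 0.00034). DUSP6, a MAP kinase phosphatase, was at 5.01 FPKM with chrysin, 9.46 FPKM in high glucose and 9.56 FPKM in low glucose (-0.85, adjusted p = 5.9e-06). POC1B, nearer to DCN than DUSP6, was not called (-0.16, limma adjusted p = 0.1). The 2 genes called higher were EEA1 (0.27, adjusted p = 0.016) and UBE2N (0.18, adjusted p = 0.00084).

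**Figure D2:**
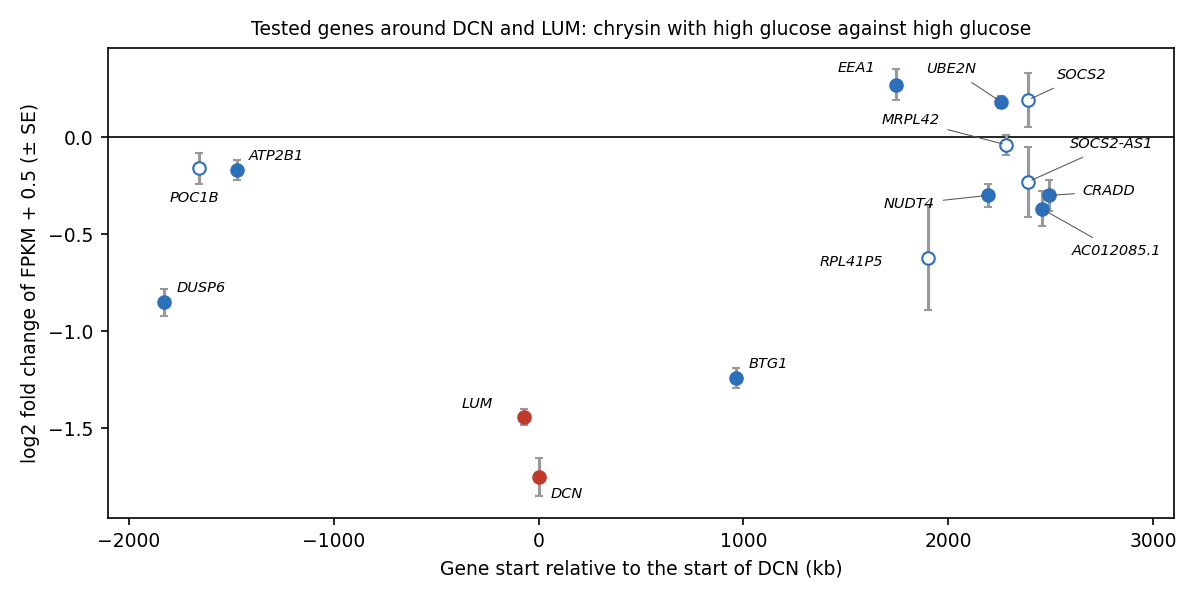
Log2 fold change of FPKM + 0.5 (± SE) in chrysin with high glucose against high glucose for the 15 tested genes within 2500 kb of DCN, by distance of the gene start from that of DCN in kb. Filled points were called and open points were not, with DCN and LUM in red; 8 genes were called lower and 2 higher.

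VCAN and HSPG2 are large modular proteoglycans. Versican binds hyaluronan and forms a hydrated pericellular matrix. VCAN (ENSG00000038427.15, chr5:83471465-83582303, plus strand) was at 7.49, 8.17 and 7.16 FPKM in chrysin, 6.02, 7.32 and 7.85 FPKM in high glucose and 7.57, 7.42 and 8.11 FPKM in low glucose. All 3 groups overlapped. The chrysin effect was 0.11 against high glucose (SE 0.09, 95% interval -0.10 to 0.32, limma adjusted p = 0.39), and the high glucose effect was -0.12 (95% interval -0.33 to 0.09, adjusted p = 0.40).

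Perlecan carries heparan sulfate and links basement membranes to growth factors. HSPG2 (ENSG00000142798.19, chr1:21822245-21937297, minus strand) was at 109, 101 and 101 FPKM in chrysin, 101, 107 and 99.8 FPKM in high glucose and 101, 97.8 and 96.1 FPKM in low glucose. The groups overlapped, and the chrysin effect was 0.02 against high glucose (SE 0.04, 95% interval -0.07 to 0.11, limma adjusted p = 0.73). The effect of high glucose was 0.06 (95% interval -0.03 to 0.15, adjusted p = 0.32). This interval is narrower than that of VCAN. HSPG2 had 3265 to 4541 reads per library and VCAN 550 to 757. LUM, with 483 to 1636 reads, had the same SE of 0.04 as HSPG2 in chrysin against high glucose. Whether depth set these widths was not tested.

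At the cell surface, syndecan-1 is a transmembrane heparan sulfate proteoglycan. SDC1 (ENSG00000115884.10, chr2:20200797-20225433, minus strand) had the highest FPKM of the 10 genes in every library. It was at 189, 194 and 199 FPKM in chrysin, 191, 186 and 178 FPKM in high glucose and 192, 187 and 184 FPKM in low glucose. The groups overlapped. Its chrysin effect was 0.07 against high glucose (SE 0.03, 95% interval -0.01 to 0.14, limma adjusted p = 0.13), and it passed without high glucose library 1, the library that stood apart (0.09, adjusted p = 0.039). The high glucose effect was -0.02 (adjusted p = 0.69).

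Glypican-1 modulates growth factor signalling through heparan sulfate at the membrane. GPC1 (ENSG00000063660.8, chr2:240435671-240468078, plus strand) was at 107, 105 and 107 FPKM in chrysin, 77.8, 78.4 and 74.5 FPKM in high glucose and 74.2, 75.1 and 73.2 FPKM in low glucose. Every chrysin library was above every other library, and the high and low glucose ranges overlapped. GPC1 rose in chrysin against high glucose by 0.46 on the log2 scale (SE 0.03, 95% interval 0.40 to 0.53, limma adjusted p = 8.6e-07) and against low glucose by 0.52 (95% interval 0.45 to 0.58, adjusted p = 2.9e-07). High glucose against low glucose gave 0.05 (95% interval -0.01 to 0.12, adjusted p = 0.25). Without high glucose library 1 the chrysin effect was 0.47. MIR149 lies inside GPC1 on the same strand and was at 0 to 2.93 FPKM.

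GPC1 is shown with the 250 bases before its RefSeq start (GRCh38.p14, chr2:240435413-240435662, plus strand), since it was the proteoglycan gene that rose. Capitals mark matches to the GC box, GGGCGG or its reverse complement.
GPC1: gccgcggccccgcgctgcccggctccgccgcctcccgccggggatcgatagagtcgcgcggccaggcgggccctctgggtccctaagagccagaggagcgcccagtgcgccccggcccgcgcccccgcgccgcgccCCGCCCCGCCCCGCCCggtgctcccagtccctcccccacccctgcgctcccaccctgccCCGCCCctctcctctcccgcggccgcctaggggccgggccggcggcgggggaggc
The window was 84.0% G and C and held 4 GC-box matches, 3 of them in a run in which each shares a base with its neighbour. Of 35116 upstream windows of this length in the RefSeq table, 42.6% held at least 1 such match and 7.63% held at least as many as GPC1. It had no match on either strand to TATAAA (in 10.7% of windows), the AP-1 motif TGANTCA (6.57%), CCAAT (32.0%) or GCGTG, the core of the aryl hydrocarbon receptor's element (32.2%). The same window of BGN, which did not rise with chrysin, held 5 GC-box matches, and 4.15% of windows held at least as many. The BGN window also had no match to the other motifs. Any link between these matches and the change of GPC1 was not tested.

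**Figure D3:**
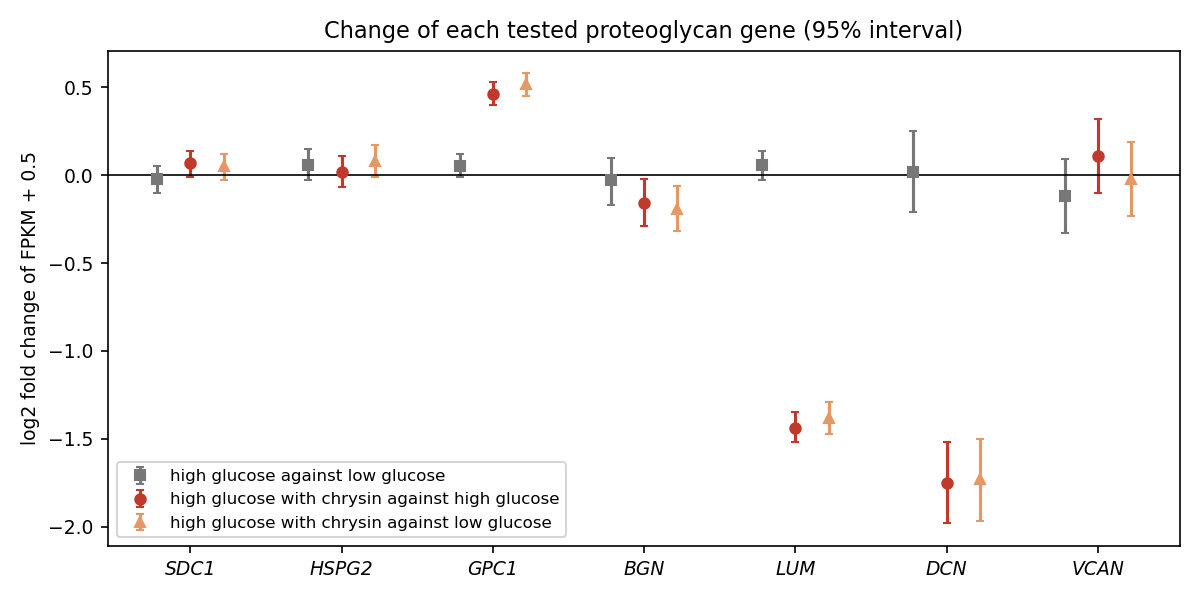
Log2 fold changes of FPKM + 0.5 with 95% intervals for the 7 tested proteoglycan genes, with circles for chrysin against high glucose, triangles for chrysin against low glucose and squares for high glucose against low glucose. With chrysin, LUM and DCN lie below -1 and GPC1 between 0.40 and 0.58 against either glucose condition, while all 7 intervals for high glucose against low glucose include 0.

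Counted together, 3 of the 7 tested proteoglycan genes were called in chrysin against high glucose, where 45.8% of all tested genes were called. DCN and LUM were among the 20.9% called lower, and GPC1 was among the 24.9% called higher. Against low glucose 4 of 7 were called in chrysin, with 51.0% of all tested genes; DCN, LUM and BGN belonged to the 21.3% lower and GPC1 to the 29.7% higher. Between high and low glucose none of the 7 was called, by limma on log2 FPKM or by limma voom on recovered reads, and none had an unadjusted p under 0.05. Their 95% intervals lay between -0.33 and 0.25, and 23.5% of all tested genes were called, 14.6% higher and 8.91% lower. That split depended on scaling: 62.2% of calls were higher with FPKM as deposited and 51.6% after median-of-ratios scaling. The same scaling turned the balance in both chrysin comparisons, where the share of calls that were higher was 54.3% as deposited and 49.0% scaled against high glucose, and 58.3% as deposited and 49.2% scaled against low glucose. The shares of calls show that a called gene was common in both chrysin comparisons. The 2 chrysin comparisons share the chrysin libraries, and the first shares its high glucose libraries with the third.

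The order of FPKM levels, which rests on the length used for each gene, changed at 2 places. In chrysin it ran SDC1, GPC1, HSPG2, BGN, LUM, VCAN and DCN, with GPC1 and HSPG2 overlapping. In high glucose and in low glucose it ran SDC1, HSPG2, GPC1, BGN, LUM, DCN and VCAN, with no overlap between neighbours. DCN thus stood below VCAN in chrysin and above it in both other groups. Among all tested genes, 36.3% had a lower mean than DCN in chrysin, 55.8% in high glucose and 55.7% in low glucose. For LUM these shares were 61.7% in chrysin, 81.7% in high glucose and 81.3% in low glucose, and for GPC1 92.2%, 88.6% and 88.4% in the same order.

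In FPKM as deposited, the makeup of the proteoglycan transcripts moved with chrysin while their sum changed little. The sum and the shares rest on the length used for each gene. The 10 genes summed to 483, 483 and 487 FPKM in chrysin libraries, 499, 498 and 476 FPKM in high glucose and 495, 485 and 480 FPKM in low glucose, and these ranges overlapped. Small leucine-rich genes made up 14.7%, 15.4% and 15.0% of that sum in chrysin, 24.8%, 23.8% and 24.5% in high glucose and 24.3%, 24.2% and 24.6% in low glucose. SDC1 and GPC1 made up 61.2%, 61.9% and 62.8% in chrysin, 53.9%, 53.1% and 52.9% in high glucose and 53.7%, 54.1% and 53.6% in low glucose. For both shares the chrysin libraries did not overlap the others, while high and low glucose did. An exact permutation test of 3 against 3 libraries cannot go below p = 0.1, so these shares are given without a test.

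Ratios between genes show where the shift lay. The FPKM ratio of BGN to DCN was 14.4, 12.8 and 17.1 in chrysin, 5.15, 4.42 and 3.75 in high glucose and 4.70, 5.03 and 4.03 in low glucose. The ratio of LUM to DCN was 5.45, 4.23 and 5.82 in chrysin, 4.11, 3.69 and 3.61 in high glucose and 3.51, 4.14 and 3.47 in low glucose. Its lowest chrysin library was close to the highest of the others, and the difference between the changes of LUM and DCN was not tested. The ratio of SDC1 to GPC1 was 1.77, 1.85 and 1.86 in chrysin, 2.46, 2.37 and 2.38 in high glucose and 2.59, 2.49 and 2.52 in low glucose. In all 3 ratios the chrysin libraries lay outside the range of the other 6.

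**Figure D4:**
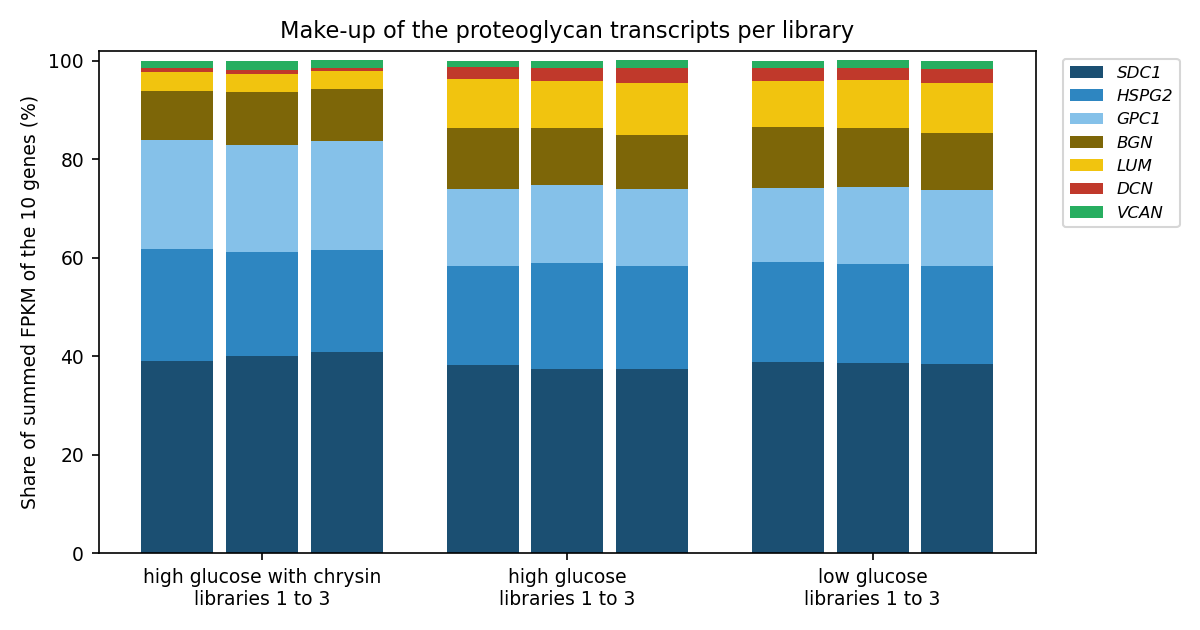
Stacked bars of each proteoglycan gene's share, in percent, of the summed FPKM of the 10 genes, for every library by group; FMOD, PRELP and OGN are too low to be drawn. The shares of LUM and DCN shrink in the 3 chrysin libraries and that of GPC1 grows to between 21.7% and 22.1%, against 15.0% to 15.8% in the other 6.

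DCN and LUM are themselves widely used as fibroblast genes, and the fibroblast markers moved beside them. Of the 10, none was called higher and 6 were called lower in chrysin against high glucose (7 without high glucose library 1), with a median log2 fold change of -0.63; of all tested genes 24.9% were higher and 20.9% lower. FAP, a surface protease of activated fibroblasts, was at 19.2 FPKM with chrysin, 53.7 FPKM in high glucose and 63.7 FPKM in low glucose (-1.46). The collagen genes COL1A1, COL1A2 and COL3A1 fell by 0.82, 0.76 and 0.74 on the log2 scale. THY1 gave 0.02, DDR2 -0.05, POSTN -0.06 and TCF21 0.26, and none of these passed the test. In high glucose against low glucose 3 markers rose (COL1A1, COL1A2 and THY1) and 3 fell (FAP, DDR2 and POSTN), with a median of 0.03. In bulk RNA, fewer cells of a type and less RNA per cell cannot be told apart, and the part of these markers in the change of DCN and LUM was not tested.

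Among markers of other cell types, those of smooth muscle moved in mixed directions in chrysin against high glucose. In the epithelial, cardiomyocyte, endothelial and leukocyte lists no gene was called higher there. Only 1 of 12 cardiomyocyte, 1 of 6 endothelial and 3 of 5 leukocyte markers were tested, and 1 of each list was called lower. These included NPPB (-0.37, limma adjusted p = 0.0028) and TEK (-0.45, adjusted p = 0.046). The TEK call was lost in several fits that left out a library, among them the fit without high glucose library 1. Of all tested genes, 24.9% were higher and 20.9% lower. Of 6 smooth muscle markers, 5 were tested and 3 rose in chrysin against high glucose, led by ACTA2 at 9.38 FPKM with chrysin, 2.53 FPKM in high glucose and 2.99 FPKM in low glucose, while DES fell and MYH11 stayed under 0.5 FPKM. Their summed level was 418 to 424 FPKM in chrysin, 300 to 323 FPKM in high glucose and 295 to 308 FPKM in low glucose. Of 5 epithelial markers, 4 were tested and KRT8 and KRT18 fell, by 0.39 and 0.58 on the log2 scale, while none rose. The epithelial sum was 235 to 246 FPKM in chrysin, 335 to 365 FPKM in high glucose and 304 to 319 FPKM in low glucose. Cardiomyocyte markers summed to 10.2 to 12.2 FPKM in chrysin, 13.3 to 16.2 FPKM in high glucose and 19.8 to 20.6 FPKM in low glucose, nearly all from NPPB. Endothelial markers summed to at most 2.19 FPKM in any library and leukocyte markers to at most 5.64 FPKM, with CD3E at 0. CD14 was at 1.94 FPKM with chrysin, 3.91 FPKM in high glucose and 2.22 FPKM in low glucose.

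By likeness of pattern, measured as Pearson's r of log2(FPKM + 0.5) over the 9 libraries among genes averaging 5 FPKM or more in some group, the genes nearest to DCN were LOX, which crosslinks collagen (r = 0.997), PRSS12, a secreted serine protease (0.996), and PLAAT3, a phospholipase (0.996). LOX was at 45.1 ± 2.3 FPKM with chrysin, 89.1 ± 2.5 FPKM in high glucose and 90.9 ± 3.0 FPKM in low glucose (SD, n = 3 each). Nearest to LUM were ECM1, a secreted matrix protein (0.997), PPP4R1, a phosphatase subunit (0.996), and ITGA11, the collagen receptor integrin alpha-11 (0.996). ITGA11 was at 30.5 FPKM with chrysin, 48.5 FPKM in high glucose and 48.2 FPKM in low glucose. Nearest to GPC1 were WDR46 (0.996), the kinase gene SGK2 (0.995) and ID3, an inhibitor of basic helix-loop-helix factors (0.995). ID3 was at 165 FPKM with chrysin, 73.6 FPKM in high glucose and 69.8 FPKM in low glucose. SGK2 was at 5.04 FPKM with chrysin, 0.364 FPKM in high glucose and 0.243 FPKM in low glucose. It reached the 5 FPKM minimum only through the chrysin group. The 3 highest r values were 0.953 to 0.973 for BGN, 0.917 to 0.966 for VCAN, 0.906 to 0.908 for HSPG2 and 0.927 to 0.941 for SDC1. The libraries are the same 9 in each case, and r takes in both the differences between the 3 groups and the spread within them, which were not told apart.

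The other genes of the pathway were counted from lists of core proteins and of the enzymes that build, edit and degrade the chains. Of 136 genes listed, 98 were tested. In chrysin against high glucose 15 (15.3%) were called higher and 40 (40.8%) lower, where 24.9% and 20.9% of all tested genes were (14 and 39 without high glucose library 1), with a median log2 fold change of -0.10 against 0.03 over all tested genes. In high glucose against low glucose 21 (21.4%) were higher and 16 (16.3%) lower, where 14.6% and 8.91% of all tested genes were, with a median of 0.07 against 0.03 over all. The balance turned after median-of-ratios scaling, with 17 higher and 18 lower, and the lower count was 10 without low glucose library 3. In chrysin against low glucose 22 (22.4%) were higher and 34 (34.7%) lower, where 29.7% and 21.3% of all tested genes were. Of the 98 genes, 9 had a mean under 0.5 FPKM in at least 1 group and so passed the filter through another. Over the remaining 89, 14 were higher and 37 lower in chrysin against high glucose, 21 and 16 in high glucose against low glucose, and 21 and 29 in chrysin against low glucose. The same shares of all tested genes apply to the counts of each list below.

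Among 18 tested core proteins outside the 10 genes, 2 rose and 9 fell in chrysin against high glucose. Of the 18, 14 were at or above 0.5 FPKM in all groups, and 2 of these rose and 8 fell. CD44, the hyaluronan receptor that can carry chondroitin or heparan sulfate, was at 428 ± 4.5 FPKM with chrysin, 535 ± 3.6 FPKM in high glucose and 543 FPKM in low glucose (SD, n = 3; log2 fold change of chrysin against high glucose -0.32, limma adjusted p = 7.7e-07). SPOCK1, a secreted testican, was at 197 FPKM with chrysin, 274 FPKM in high glucose and 287 FPKM in low glucose (-0.47, adjusted p = 5.1e-06). The syndecan genes SDC2, SDC3 and SDC4 fell by 0.24, 0.29 and 0.24 on the log2 scale; their difference from SDC1 was not tested. SRGN, the core protein of secretory granules, and APLP2 were the 2 that rose, SRGN to 539 FPKM with chrysin against 488 FPKM in high glucose. With high glucose against low glucose AGRN (agrin), SDC3 and PODNL1 rose, by 0.28, 0.24 and 0.56, and none fell. The PODNL1 call was lost without low glucose library 2 (0.48, adjusted p = 0.050).

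Of 14 tested genes for the linkage region and precursors, 1 rose and 5 fell in chrysin against high glucose. PAPSS1, which makes the sulfate donor, was at 47.8 FPKM with chrysin, 69.9 FPKM in high glucose and 63.9 FPKM in low glucose (-0.54, limma adjusted p = 9.8e-07). XYLT2, which adds the first xylose to the core protein, was at 37.2 FPKM with chrysin, 48.2 FPKM in high glucose and 34.7 FPKM in low glucose, and so fell in chrysin against high glucose (-0.37, adjusted p = 9.5e-06) and rose in high glucose against low glucose (0.47, adjusted p = 9.6e-06). UGDH, the source of UDP-glucuronic acid, fell in both, by 0.43 in chrysin against high glucose and by 0.31 in high glucose against low glucose. The one that rose with chrysin was B3GAT3, which completes the linkage region, at 35.0 FPKM with chrysin, 26.7 FPKM in high glucose and 22.1 FPKM in low glucose. In high against low glucose 4 of the list rose and 1 fell, but 2 were higher without high glucose library 3, low glucose library 1 or low glucose library 3, and 2 after median-of-ratios scaling.

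For heparan sulfate synthesis and editing, 14 genes were tested. Of these, 1 rose and 5 fell in chrysin against high glucose, and 4 rose and 1 fell in high glucose against low glucose. Over the 13 at or above 0.5 FPKM in all groups, 1 rose and 4 fell in chrysin against high glucose. EXTL3, which starts heparan sulfate chains, was at 29.1 FPKM with chrysin, 34.4 FPKM in high glucose and 24.3 FPKM in low glucose, with log2 fold changes of -0.24 for chrysin (limma adjusted p = 0.0034) and 0.50 for high glucose (adjusted p = 0.00011). EXTL2 and the heparanase gene HPSE also fell with chrysin, by 0.25 and 0.35. HS6ST1, a sulfotransferase, and GLCE, the epimerase, rose in high glucose by 0.40 and 0.41, and in chrysin against low glucose were higher by 0.25 and 0.30 (adjusted p = 0.0004 and 0.0016). In that last comparison 4 of the list rose and 3 fell, the lower count being 0 without chrysin library 1 and 1 without chrysin library 2 or low glucose library 3. Over the 13 genes at or above 0.5 FPKM in all groups, 4 rose and 2 fell there.

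Chondroitin and dermatan sulfate genes were divided: of 14 tested, 4 rose and 5 fell in chrysin against high glucose. CHST14 and DSE, both needed for dermatan sulfate, fell by 0.54 and 0.28 (limma adjusted p = 1.1e-05 and 0.00019), and CSGALNACT2, which starts chondroitin chains, rose by 0.37 (adjusted p = 0.00049). High against low glucose gave 5 that rose and 2 that fell, with 3 higher without high glucose library 3, low glucose library 1 or low glucose library 3. There DSE and CSGALNACT2 fell by 0.30 and 0.34 and CHPF2 rose by 0.35. DSE was at 26.5 FPKM with chrysin, 32.4 FPKM in high glucose and 39.9 FPKM in low glucose. Of 7 tested keratan sulfate genes, 5 were at or above 0.5 FPKM in all groups. Of these 5, none rose and 1 fell with chrysin against high glucose, B4GALT4 by 0.48. B3GNT7 was at 0.477 FPKM with chrysin, 1.05 FPKM in high glucose and 0.907 FPKM in low glucose. It entered the test only through the groups without chrysin, so its lower level with chrysin is a description. Without chrysin, B3GNT2 rose in high against low glucose by 0.49 and B4GALT1 fell by 0.12, a call with a limma adjusted p of 0.048 that, among the fits that left out 1 library, was kept only without high glucose library 3.

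Hyaluronan is the protein-free chain that versican and CD44 bind. Of 10 tested genes in its list, 8 were at or above 0.5 FPKM in all groups, and 1 of these rose and 1 fell in chrysin against high glucose, while in high glucose against low glucose 2 rose and 2 fell. CEMIP, which takes part in hyaluronan breakdown, was at 37.1 FPKM with chrysin, 53.9 FPKM in high glucose and 68.9 FPKM in low glucose, with log2 fold changes of -0.53 for chrysin (limma adjusted p = 1.6e-06) and -0.35 for high glucose (adjusted p = 0.00012). The synthase gene HAS2 was at 5.59 FPKM with chrysin, 4.85 FPKM in high glucose and 9.28 FPKM in low glucose, and fell in high glucose by 0.87 (adjusted p = 3.1e-05). HYAL2, a hyaluronidase gene, rose by 0.31 in high glucose and by 0.20 with chrysin (adjusted p = 0.0085 and 0.035). The chrysin call of HYAL2 was lost without any 1 of the chrysin libraries, without high glucose library 2 or 3, with no filter, after median-of-ratios scaling, with the replicate number as a block and in a fit of the 2 groups alone (adjusted p = 0.055 to 0.13). HAPLN2, a link protein gene, was at 0.720 FPKM with chrysin, 0.0796 FPKM in high glucose and 0.105 FPKM in low glucose; it entered the test only through the chrysin group, so its difference there is a description. Over all 10 genes the lower count in chrysin against high glucose was 2, in place of 1, without chrysin library 2 and 3 without high glucose library 1.

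Of the proteases that cleave proteoglycan core proteins, listed with their inhibitor TIMP3, 7 of 9 tested genes fell and 1 rose in chrysin against high glucose, with a list median of -0.41, the lowest of the 8 lists. ADAMTS5, which cleaves versican and aggrecan, was at 1.67, 1.78 and 1.58 FPKM in chrysin libraries, 5.70, 5.46 and 5.82 FPKM in high glucose and 7.31, 8.02 and 7.81 FPKM in low glucose. The 3 groups did not overlap, with log2 fold changes of -1.50 for chrysin against high glucose (SE 0.08, limma adjusted p = 2.6e-07) and -0.41 for high glucose against low glucose (SE 0.08, adjusted p = 0.0042). ADAMTS1, also a versican-cleaving enzyme, was at 32.7, 35.1 and 36.3 FPKM in chrysin, 61.9, 67.3 and 68.6 FPKM in high glucose and 125, 117 and 123 FPKM in low glucose. It too had 3 separate ranges, and fell by 0.92 with chrysin (adjusted p = 2.8e-07) and by 0.88 in high glucose (adjusted p = 1.3e-06). TIMP3, the matrix-bound inhibitor of these enzymes, fell with chrysin by 0.53, and MMP14 and BMP1, which processes decorin and biglycan precursors, by 0.34 and 0.28. The exception was TLL1, a relative of BMP1, at 2.39 FPKM with chrysin, 1.28 FPKM in high glucose and 1.92 FPKM in low glucose. In high glucose against low glucose 1 protease gene rose and 5 fell, with 2 lower without low glucose library 3 and 2 higher without high glucose library 1.

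All 12 genes for lysosomal breakdown of the chains were tested, and 4 rose and 6 fell in chrysin against high glucose, the higher count being 2 without chrysin library 2 or 3 or high glucose library 2 or 3. SGSH, the heparan sulfamidase gene, was at 49.9 FPKM with chrysin, 35.4 FPKM in high glucose and 39.0 FPKM in low glucose (0.49, limma adjusted p = 6.8e-06). In high glucose against low glucose 1 rose (GALNS, 0.17) and 4 fell, among them NAGLU by 0.33, and 2 were lower without chrysin library 1, high glucose library 3 or any 1 of the low glucose libraries.

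In chrysin against low glucose, a comparison that spans both treatments, ADAMTS5 and ADAMTS1 fell by 1.92 and 1.80 on the log2 scale and TIMP3 by 0.65. Of the 9 genes of the protease list, TIMP3 included, none rose and 7 fell. Of the 8 hyaluronan genes expressed in all groups 3 rose and 2 fell, CEMIP by 0.89 and HAS2 by 0.69, and HYAL2 rose by 0.52 (limma adjusted p = 0.00012). Among linkage and precursor genes 4 rose and 4 fell, with B3GAT3 higher by 0.65 and UGDH and PAPSS1 lower by 0.74 and 0.42. Of the chondroitin and dermatan sulfate genes 6 rose, among them CHPF2 by 0.47 and CHPF by 0.40, and 3 fell, including DSE with -0.58. Of the keratan sulfate genes B3GNT2 rose by 0.59 and 3 fell, 2 of the 3 being genes at or above 0.5 FPKM in all groups. Of the other core proteins 2 rose and 7 fell, 4 of the 7 being such genes. The lysosomal genes had 1 that rose, SGSH with 0.35, and 5 that fell, among them HEXA with -0.27. The count of higher linkage genes was 2 without chrysin library 1 or 3 or low glucose library 1 or 2 and 1 after median-of-ratios scaling. That of higher hyaluronan genes, 4 with HAPLN2, was 2 without chrysin library 2 or 3 or low glucose library 1 or 3, and that of lower keratan sulfate genes was 1 without chrysin library 3 or low glucose library 2, with 2 higher without chrysin library 1.

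**Figure D5:**
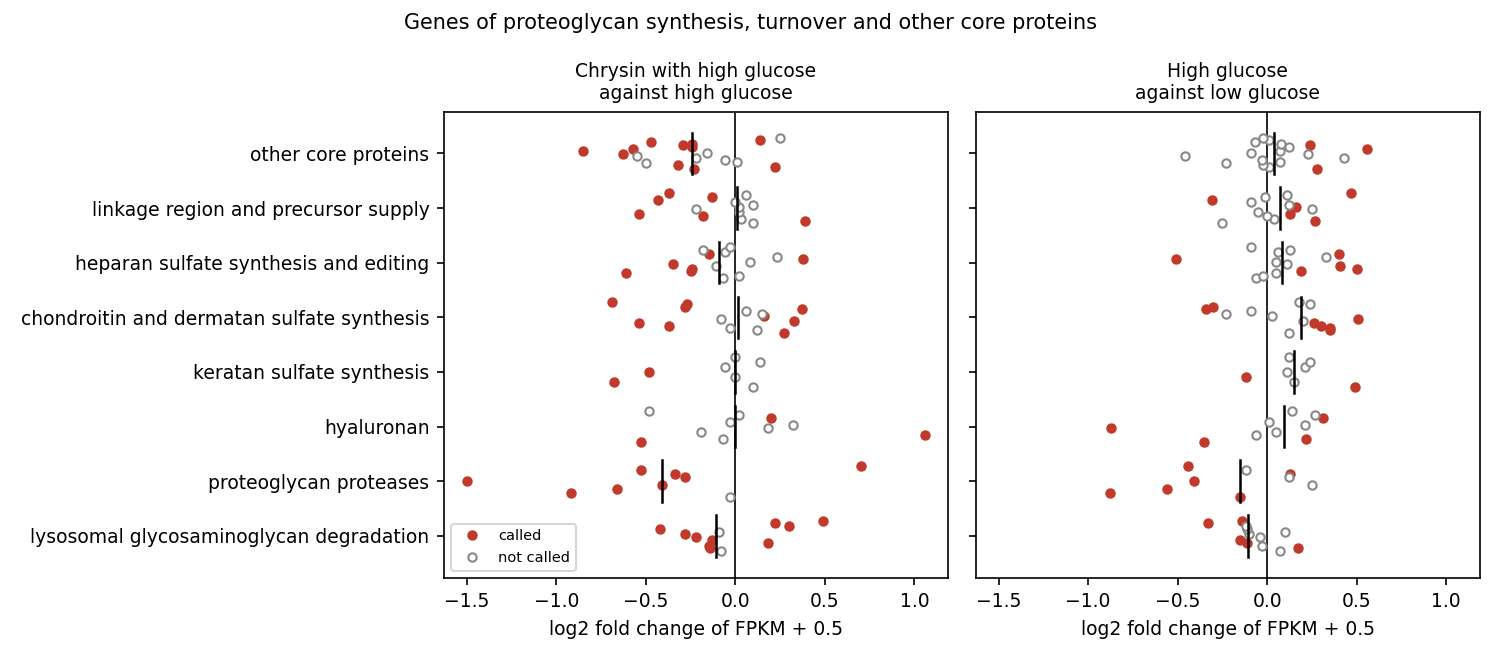
Log2 fold changes of FPKM + 0.5 for the 98 tested genes of the 8 pathway lists, each point 1 gene, filled where called, with a black line at each list's median, for chrysin with high glucose against high glucose on the left and high glucose against low glucose on the right. The proteases have the lowest median in both, -0.41 with chrysin and -0.15 in high glucose.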

How the data were processed

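RNA of 9 AC16 libraries was assigned to 3 groups from the treatment labels. The deposited table held FPKM for 60671 rows, a unit read from the values. Per the submitters' processing notes, HTSeq 0.13.5, StringTie 2.2.1, HISAT2 2.2.1 and fastp 0.23.4 were used with hg38. The sources used here give no roles, annotation release or strand setting. Each gene's deposited FPKM values were whole multiples of a step, and for all 28230 rows above 0 in at least 2 libraries these gave whole reads within 0.02 (largest deviation 4.6e-05).

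The main test was limma 3.58.1 (R 4.3.3) on log2(FPKM + 0.5) with a mean-variance trend, over the 16996 rows whose mean reached 0.5 FPKM in some group. All 9 libraries entered 1 fit, and two-sided p-values were Benjamini-Hochberg adjusted over all rows. It was tested on simulated data. A fold change on this scale understates the change of low genes. Repeated gene names (1094 rows) were kept as separate rows. Positions are from GENCODE 29.

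The 10 genes and all lists were chosen with earlier results of these data known. From each pathway list, the called genes with the smallest adjusted p were named, up to 3 per comparison, together with genes that overlap the 10 or are most like them; other named genes were chosen after their values were seen. Some genes that this rule names are not reported here. Alternatives were pseudocounts of 0.1 and 1, a block for the replicate number, other filters, voom on recovered reads, median-of-ratios scaling, 2-group fits and leaving out each library.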

Additional observations from a re-analysis of the deposited data

How the results depend on the processing

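DCN, LUM and GPC1 kept their direction and call in both chrysin comparisons under every alternative run, with log2 fold changes against high glucose of -1.90 to -1.63, -1.46 to -1.41 and 0.44 to 0.48. In high glucose against low glucose no proteoglycan gene was called under any alternative. The count of proteoglycan genes called in chrysin against high glucose was 4 in place of 3 when genes had to average 5 FPKM, after median-of-ratios scaling or by limma voom (BGN added), and without high glucose library 1 (SDC1) or 3 (BGN).

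Over all genes, leaving out 1 library gave 6812 to 7660 calls in chrysin against high glucose, 2971 to 3811 in high glucose against low glucose and 7707 to 8938 in chrysin against low glucose; limma voom on recovered reads gave 8301, 4654 and 8984. With the replicate number as a block the counts were 7546, 3693 and 8423, and no proteoglycan call changed. Deviations of same-numbered libraries correlated at -0.015 to 0.008, and those of differently numbered libraries at -0.021 to 0.026. A correlation over all genes cannot exclude a shared culture day or batch that acts on some of them.

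Small effects that were never called changed sign. With median-of-ratios scaling, DCN in high glucose gave -0.01, HSPG2 with chrysin against high glucose -0.01 and SDC1 with chrysin against low glucose -0.01. Leaving out 1 library gave -0.05 to 0.07 for DCN, -0.09 to 0.03 for BGN and -0.05 to 0.01 for SDC1 in high glucose, -0.02 to 0.05 for HSPG2 with chrysin against high glucose and -0.07 to 0.02 for VCAN with chrysin against low glucose. The cause was not tested. FMOD, PRELP and OGN were too low to test, and DCN had the fewest reads of the 7 genes tested.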
